A study of Mus musculus with 5 samples.

Results

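The collagens are the genes whose symbol in the deposited table is Col, a number, the letter a and a number. The rule found 44 genes among 24330 symbols, each with 1 row, and they fall into 11 fibrillar, 6 basement membrane, 6 microfibrillar and 21 other collagens. The values come from 3 RNA-seq libraries of primary adipocytes from epididymal fat of wild-type C57BL/6 mice at 17 weeks of age, and the labels name no treatment. Bisulfite libraries of the same series, from Dnmt1 AKO (adipocyte-specific Dnmt1 knockout) and wild-type mice, were not analysed here, so no genotype is compared. Levels are FPKM, which divide the fragments of a gene by its transcript length and by the size of the library, and this allows levels of different genes to be set side by side.

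Collagens are secreted or membrane proteins in which chains with glycine at every repeat position wind into a triple helix. Fibrillar collagens assemble into the load-bearing fibrils between cells, type IV collagens form the sheet of the basement membrane, and type VI collagens form beaded microfilaments that link the sheet to the fibrils. Each adipocyte is wrapped in its own basement membrane, and fat depots lay down more fibrillar and type VI collagen when they become fibrotic. Fibroblasts, mural cells and endothelial cells of the same tissue also make collagens.

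Read counts are not part of the table, so the depth behind each value and its counting error are unknown. The labels do not say whether libraries came from separate animals, so errors measure only the spread between these samples. The preparation held RNA of several cell types. All 14 listed adipocyte markers reached FPKM 1 in every library, but so did 12 of 12 endothelial, 12 of 12 preadipocyte and fibroblast, 10 of 11 mural, 9 of 9 macrophage and 8 of 8 mesothelial markers. Their share in a collagen's level was not tested. None of 6 chondrocyte markers did.

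The start regions of 6 collagen genes are shown because they set the CpG-rich start regions of the abundant Col4a1 and Col4a2 beside CpG-poor ones of genes at a high level, Col3a1, Col1a2 and Col6a1, and at a low level, Col4a4. The basement membrane genes Col4a1 and Col4a2 stand head to head on chromosome 8, and Col4a4 is one of another head-to-head pair, with Col4a3, on chromosome 1. Col3a1 and Col1a2 were the highest fibrillar genes, and Col6a1 the highest microfibrillar gene, with an entry. Each window comes from RefSeq on GRCm38.p6 and runs from 250 bases before to 50 bases after a start, 5′ to 3′ on the gene's strand. For Col4a1 and Col4a4 the start used is the end of the locus in the deposited table, and the RefSeq gene ends farther out, at 11312889 and 82587034. For Col4a2 and Col1a2 it is the RefSeq start, 11312805 and 4505618, and the locus in the deposited table starts farther in, at 11312829 and 4505697. Motif distances and the overlap of windows given below count from the start used. Capitals mark the GC box GGGCGG, the CCAAT box CCAAT and the TATA box TATAAA on either strand. The windows are chr8:11312555-11312854 on the plus strand for Col4a2, chr8:11312777-11313076 on the minus strand for Col4a1 and chr1:82586800-82587099 on the minus strand for Col4a4. They are chr1:45311288-45311587 on the plus strand for Col3a1, chr6:4505368-4505667 on the plus strand for Col1a2 and chr10:76725995-76726294 on the minus strand for Col6a1.
Col4a2: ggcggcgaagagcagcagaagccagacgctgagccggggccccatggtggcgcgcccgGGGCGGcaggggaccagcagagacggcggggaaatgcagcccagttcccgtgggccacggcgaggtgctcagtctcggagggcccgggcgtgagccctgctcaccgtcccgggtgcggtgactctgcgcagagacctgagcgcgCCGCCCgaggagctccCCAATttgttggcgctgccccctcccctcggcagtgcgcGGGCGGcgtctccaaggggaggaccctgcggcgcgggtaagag
Col4a1: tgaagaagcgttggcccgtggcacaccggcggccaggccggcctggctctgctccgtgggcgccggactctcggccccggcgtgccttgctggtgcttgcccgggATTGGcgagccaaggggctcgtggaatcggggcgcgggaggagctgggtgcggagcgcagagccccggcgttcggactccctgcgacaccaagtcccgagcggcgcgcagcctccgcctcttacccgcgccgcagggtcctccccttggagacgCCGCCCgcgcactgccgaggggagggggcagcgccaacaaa
Col4a4: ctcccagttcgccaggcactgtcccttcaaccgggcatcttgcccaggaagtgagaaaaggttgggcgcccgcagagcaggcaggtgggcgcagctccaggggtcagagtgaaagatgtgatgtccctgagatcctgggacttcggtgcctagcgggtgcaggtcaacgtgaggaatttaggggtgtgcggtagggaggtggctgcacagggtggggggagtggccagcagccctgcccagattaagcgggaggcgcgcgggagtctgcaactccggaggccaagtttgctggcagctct
Col3a1: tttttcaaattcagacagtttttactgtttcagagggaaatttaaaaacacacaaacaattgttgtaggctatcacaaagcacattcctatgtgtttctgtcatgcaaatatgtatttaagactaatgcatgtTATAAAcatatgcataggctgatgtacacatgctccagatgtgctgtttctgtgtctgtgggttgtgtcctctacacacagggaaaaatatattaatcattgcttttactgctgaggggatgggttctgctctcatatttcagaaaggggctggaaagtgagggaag
Col1a2: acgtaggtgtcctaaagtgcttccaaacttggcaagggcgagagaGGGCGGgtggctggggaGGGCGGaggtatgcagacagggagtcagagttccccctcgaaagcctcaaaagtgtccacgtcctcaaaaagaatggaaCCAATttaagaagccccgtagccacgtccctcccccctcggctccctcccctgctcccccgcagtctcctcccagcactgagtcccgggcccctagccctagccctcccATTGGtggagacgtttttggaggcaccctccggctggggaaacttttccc
Col6a1: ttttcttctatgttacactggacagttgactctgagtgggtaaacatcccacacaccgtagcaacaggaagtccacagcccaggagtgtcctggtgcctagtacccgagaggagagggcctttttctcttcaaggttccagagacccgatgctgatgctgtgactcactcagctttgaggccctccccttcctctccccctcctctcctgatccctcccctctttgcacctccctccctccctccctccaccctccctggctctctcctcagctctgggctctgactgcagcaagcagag

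The collagens ranged over more than 5 orders of magnitude in mean FPKM, from 296 for Col4a1 to 0.00127 for Col11a1. The latter was listed at 0 in replicates 2 and 3, so the lower end of this range is not resolved. By mean FPKM Col4a1, Col4a2, Col3a1, Col6a1, Col6a2, Col1a2 and Col1a1 were the highest, in that order. The other type IV genes, and Col6a4 and Col6a6, averaged 3.22 or less. The cartilage collagens Col2a1, Col9a1, Col9a2, Col10a1 and Col11a1 averaged under 0.1, and Col9a3 and Col11a2 averaged 0.155 and 0.337. Of the 44 genes, 20 reached FPKM 1 in every library, 3 in 1 library only and 21 in none. Over all symbols the share at FPKM 1 in every library was 45.5%, the same as for the collagens. None was listed at 0 in all 3 libraries. By mean FPKM, 5 collagens stood at 100 or more, 14 at 10 or more and 10 under 0.1. The summed FPKM of all collagens was 831, 1210 and 1785 in replicates 1, 2 and 3, which was 0.165%, 0.248% and 0.341% of the table's total.

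**Figure D1:**
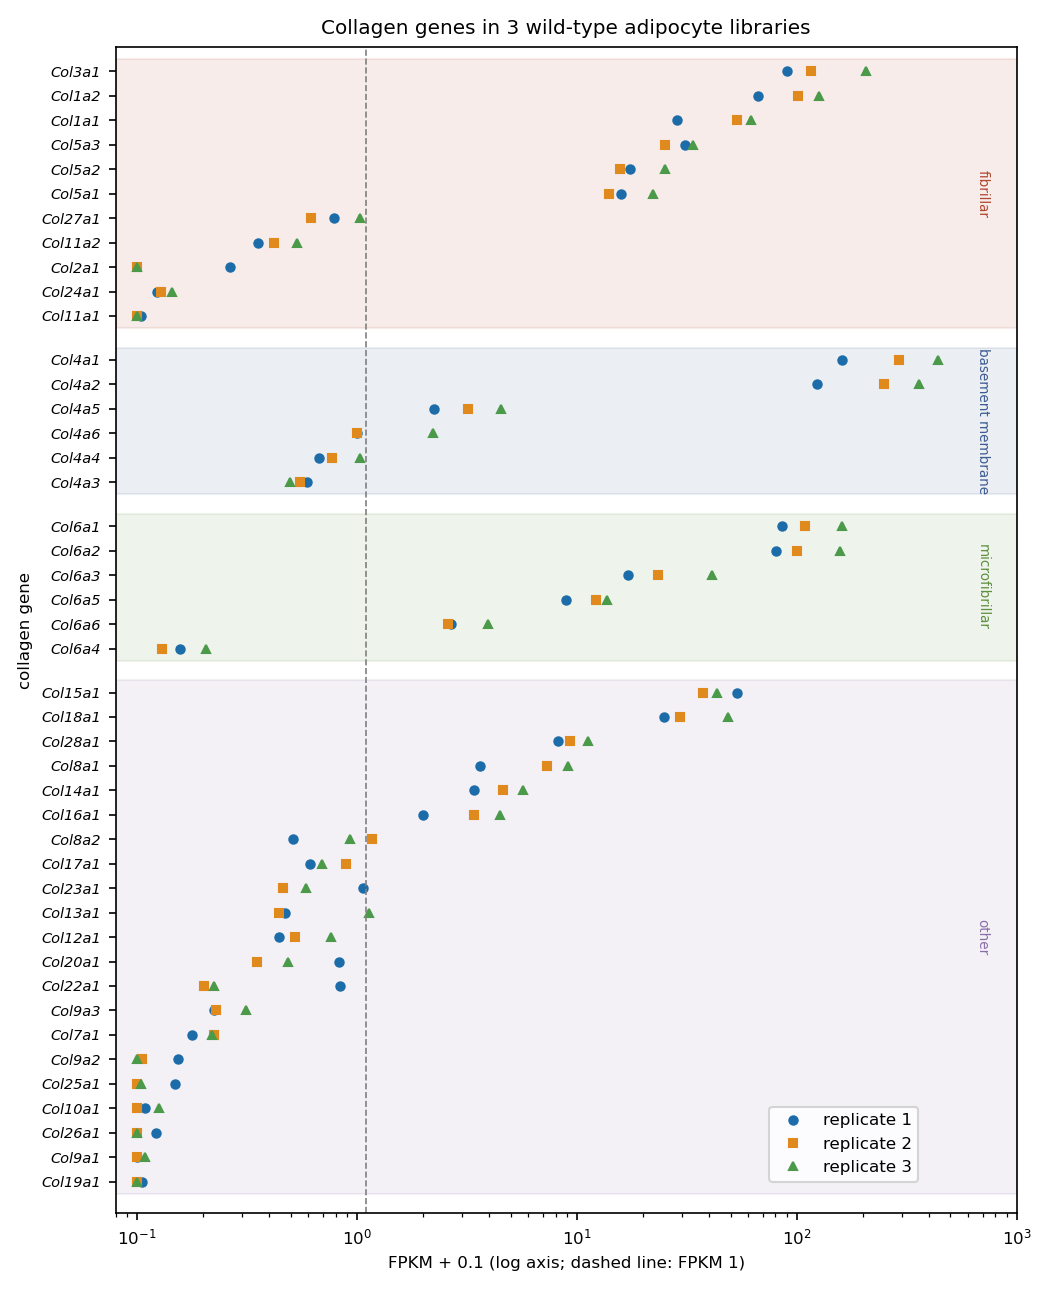
FPKM plus 0.1 on a log axis for each of the 44 collagen genes, grouped by class and ordered by mean within it, with 1 point for each of the 3 libraries and a dashed line at FPKM 1. Col4a1 and Col4a2 lie farthest to the right, and 20 genes have all points at or past the line.

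Basement membrane collagens were led by Col4a1 and Col4a2, which encode the chains found in nearly every basement membrane and were the highest collagens of the preparation. Col4a1 (chromosome 8, 11198423 to 11312826) had 159.8 FPKM in replicate 1, 290.3 in replicate 2 and 438 in replicate 3, and it ranked 267 of 24330 by its mean of 296 ± 139 (SD, n = 3). Col4a2 (chromosome 8, 11312829 to 11449287) stood at 123, 248 and 359, with a mean of 243 ± 118. Both were lowest in replicate 1 and highest in replicate 3, and their lowest and highest values differed 2.74-fold and 2.93-fold. Col4a5, whose chain joins the specialised networks of kidney and smooth muscle, stood at 2.13, 3.11 and 4.42. Its neighbour on the X chromosome, Col4a6, stood at 0.901, 0.902 and 2.11 and so passed FPKM 1 in replicate 3 alone. Col4a3 and Col4a4, chains of the kidney and lung basement membrane, stayed under FPKM 1 throughout, at 0.494, 0.449 and 0.395 for Col4a3 and 0.575, 0.667 and 0.937 for Col4a4. The class thus held a pair of abundant genes and 4 low ones, and its median of 1.03 ± 0.564 on the log2(FPKM + 0.1) scale lay among the low ones.

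Fibrillar collagens split into 6 genes expressed in every library and 5 under FPKM 1 in every library. Col3a1 (chromosome 1, 45311538 to 45349706), the homotrimeric collagen of extensible tissues, stood at 90.6, 116 and 207 FPKM. Col1a2 (chromosome 6, 4505697 to 4541543) and Col1a1 (chromosome 11, 94936270 to 94951856) encode the chains of type I collagen, the main protein of connective tissue. Col1a2 stood at 66.8, 101 and 126, and Col1a1 at 28.4, 53.3 and 62.0. All 3 of these genes were lowest in replicate 1 and highest in replicate 3.

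The type V genes, whose product starts type I fibrils and limits their width, were lower. Col5a3 stood at 30.8, 25.1 and 33.7 FPKM, Col5a2 at 17.4, 15.6 and 25.1 and Col5a1 at 15.7, 13.9 and 22.1. In FPKM each was lowest in replicate 2, unlike type I and type III genes. With library scaling taken out, as described below, Col5a1 and Col5a2 were lowest in replicate 1, like those genes, and Col5a3 in replicate 2. The coefficients of variation of FPKM were 14.5% for Col5a3, 26.2% for Col5a2 and 25.1% for Col5a1. They were 44.3% for Col3a1, 36.4% for Col1a1 and 30.3% for Col1a2. Of the other fibrillar genes, Col27a1 averaged 0.715 ± 0.209 and Col11a2 0.337 ± 0.0913. Col24a1 averaged 0.0322 ± 0.0108. Col2a1, the fibril of cartilage, stood at 0.166 in replicate 1 and was listed at 0 in replicates 2 and 3, and Col11a1 stood at 0.00382 in replicate 1 and was listed at 0 in the others. Of the cartilage markers, Comp stood at 2.05, 0.543 and 0.370 and Sox9 at 1.48, 0.514 and 0.746, past FPKM 1 in replicate 1 alone, and Acan was listed at 0 in replicates 1 and 2 and stood at 0.0822 in replicate 3.

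Microfibrillar collagens were expressed in every library in 5 of 6 cases. Col6a1 (chromosome 10, 76708792 to 76726044) stood at 86.0, 109 and 159.8 FPKM and Col6a2 (chromosome 10, 76595756 to 76623404) at 80.5, 100.4 and 158. The values of these genes nearly coincided in each library. Col6a3 (chromosome 1, 90766860 to 90843971), whose chain carries the fragment endotrophin at its C-terminal end, was lower, at 17.0, 23.3 and 41.2. Genes of the chains that can take the place of the α3 chain were lower again, with Col6a5 at 8.84, 12.1 and 13.6 and Col6a6 at 2.57, 2.50 and 3.86. Col6a4, the third of these, averaged 0.0640 ± 0.0385. All of these genes were highest in replicate 3.

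Among the other collagens the multiplexins, which sit at the outer face of basement membranes and release anti-angiogenic fragments, were the highest. Col15a1 (chromosome 4, 47208012 to 47313165) stood at 53.2, 37.3 and 43.4 FPKM and Col18a1 (chromosome 10, 77052179 to 77166530), the source of endostatin, at 24.9, 29.4 and 48.8. Col15a1 was the only collagen with a mean FPKM of 1 or more that was highest in replicate 1. Col28a1, a collagen best known from peripheral nerve, stood at 8.08, 9.19 and 11.1. Col8a1, a short-chain collagen of vessel walls and of Descemet's membrane in the eye, stood at 3.51, 7.23 and 8.97, and its partner chain Col8a2 at 0.413, 1.07 and 0.831. The third short-chain gene, Col10a1 of growth cartilage, was listed at 0 in replicate 2 and reached 0.0263 in replicate 3.

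Of the 9 FACIT genes, which coat other fibrils, Col14a1 and Col16a1 reached FPKM 1 in every library. Col14a1 stood at 3.31, 4.50 and 5.57 and Col16a1 at 1.89, 3.29 and 4.39. Col12a1, the relative of Col14a1 found in tendon and fascia, averaged 0.478 ± 0.167, Col20a1 0.456 ± 0.249 and Col9a3 0.155 ± 0.0505. Col22a1, a collagen of the muscle and tendon junction, stood at 0.734, 0.102 and 0.125. Col9a1 and Col19a1 were each listed at 0 in 2 libraries and Col9a2 in 1. None of the 4 transmembrane collagens reached FPKM 1 in every library. Col17a1 of hemidesmosomes averaged 0.632 ± 0.142 and Col23a1 0.603 ± 0.315, while Col13a1 stood at 0.369, 0.344 and 1.04. Col25a1 averaged 0.0178 ± 0.0275 and was listed at 0 in replicate 2. Col7a1, the anchoring fibril of skin, averaged 0.107 ± 0.0250, and Col26a1 was listed at 0 in 2 libraries.

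By share of the summed collagen FPKM, basement membrane chains held the most in each library, with 34.4%, 44.9% and 45.1% in replicates 1, 2 and 3. Fibrillar chains held 30.2%, 26.9% and 26.7%, microfibrillar chains 23.4%, 20.5% and 21.1%, and other collagens 11.9%, 7.80% and 7.10%. The basement membrane share was above the fibrillar share by 4.29 percentage points in replicate 1, 18.0 in replicate 2 and 18.4 in replicate 3. Class medians gave another order. On the log2(FPKM + 0.1) scale the median was 4.09 ± 0.471 for microfibrillar, 4.08 ± 0.346 for fibrillar, 1.03 ± 0.564 for basement membrane and -0.97 ± 0.201 for other collagens, against -0.19 ± 0.541 for all symbols. Among genes averaging FPKM 1 or more these medians were 4.67, 5.20, 4.73 and 2.94, against 3.21 for all such symbols. These levels are descriptions and were not tested.

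**Figure D2:**
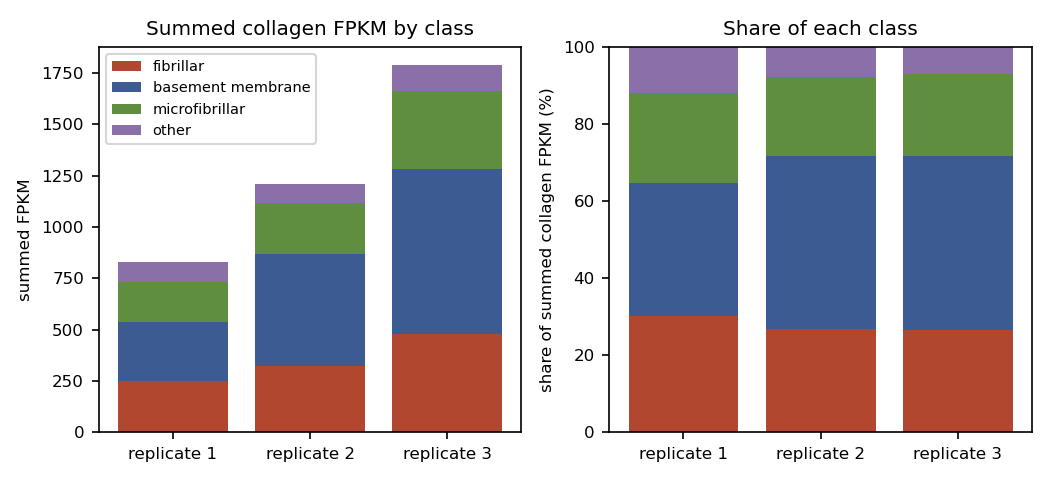
Left, summed FPKM of the 4 collagen classes stacked for each library; right, the same as a percentage of all collagen FPKM. The total was 831, 1210 and 1785 FPKM in replicates 1, 2 and 3, and the basement membrane share was 34.4% in replicate 1 and 44.9% and 45.1% in the others.

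Chains that share a triple helix, and a few pairs that do not, were compared as ratios within each library. Library scaling acts on these ratios only through the pseudocount of 0.1, most where a gene is low. Col4a1 and Col4a2 differed 1.23-fold, Col5a1 and Col5a2 1.12-fold and Col6a1 and Col6a2 1.05-fold, whereas Col1a1 was 2.08-fold lower than Col1a2 and Col6a3 was lower than both partners. The log2 ratio of Col1a1 to Col1a2 was -1.23, -0.92 and -1.02, a mean of -1.06 ± 0.162 (SD, n = 3). The Col1a1 locus of the table ends at 94951856 and the RefSeq gene at 94953042, while for Col1a2 both end at 4541543. An effect of this on the ratio was not tested. Type I collagen protein holds a pair of α1 chains for each α2 chain, but FPKM measures RNA and no protein was measured. The log2 ratio of Col4a1 to Col4a2, which join in the same proportion, was 0.38, 0.23 and 0.28, a mean of 0.30 ± 0.0776. Col6a1 exceeded Col6a2 by 0.08 ± 0.0564 log2 units, and Col5a1 was below Col5a2 with a ratio of -0.17 ± 0.0176, the smallest spread of the pairs compared.

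Col6a3 was below both of its partner chains, by a log2 ratio of -2.17 ± 0.195 to Col6a1 and -2.09 ± 0.148 to Col6a2. That is 4.50-fold and 4.26-fold lower. Type VI collagen protein holds the 3 chains in equal number, but these ratios are of RNA and no protein was measured. Col5a3 exceeded Col5a1 by 0.81 ± 0.185. Col4a5 exceeded Col4a6 by 1.29 ± 0.344, and Col4a3 was below Col4a4 with a ratio of -0.58 ± 0.449, both between genes of low level. Col8a1 exceeded Col8a2 by 2.92 ± 0.329 and Col14a1 exceeded Col12a1 by 2.99 ± 0.128.

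Across classes, Col4a1 exceeded Col3a1 by 1.07 ± 0.252 log2 units, and Col6a1 was below Col4a1 with a ratio of -1.25 ± 0.311 and near Col3a1 with a ratio of -0.18 ± 0.168. Within the fibrillar class Col3a1 exceeded Col1a1 by 1.51 ± 0.338. Col4a1 exceeded Col4a5 by 6.42 ± 0.225. Col15a1 and Col18a1 had no common order, with a log2 ratio of 1.09, 0.34 and -0.17 and a mean of 0.42 ± 0.633 (exact sign-flip permutation p = 0.5, n = 3). Leaving out replicate 1, 2 or 3 gave means of 0.09, 0.46 and 0.72. For 18 of the 19 pairs all 3 libraries gave the same sign. The pairs were chosen with earlier results of these data known, some lie far apart in level, and pairs of other genes were not compared. The exact sign-flip permutation test, two-sided, gave p = 0.25 for each of those 18 and 0.264 once adjusted over the 19 by Benjamini-Hochberg. With 3 libraries 0.25 is the smallest p this test can give, so no pair could pass 0.05.

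**Figure D3:**
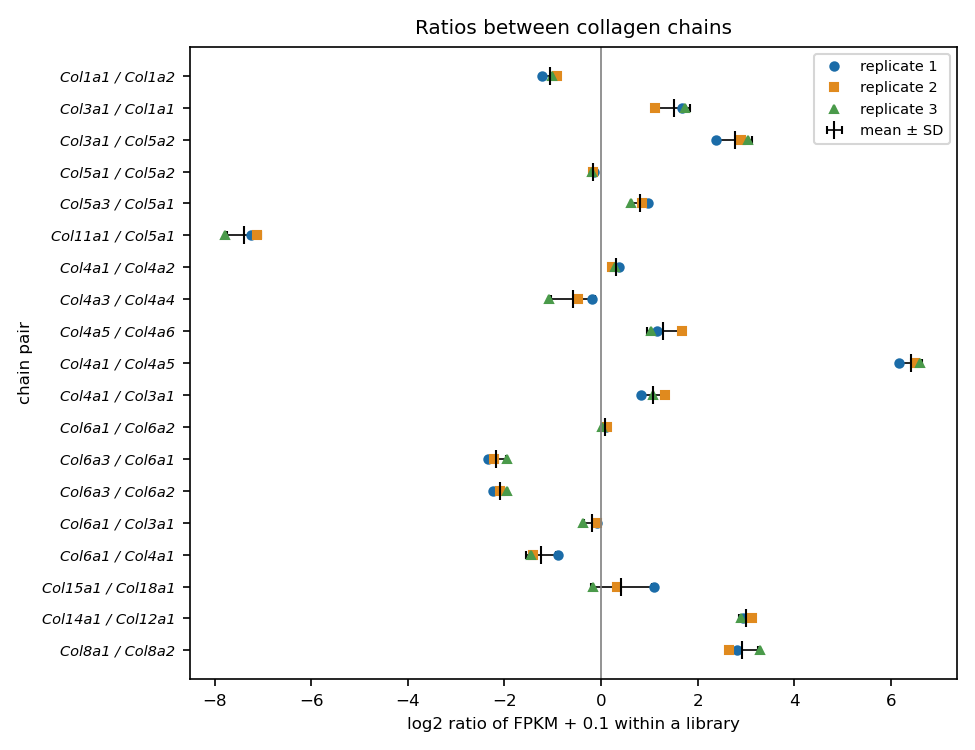
Log2 ratio of FPKM plus 0.1 between 2 collagen genes within each library, with 1 point for each of the 3 libraries and a bar for the mean and SD. Points of Col15a1 over Col18a1 fall on both sides of 0, and those of the other 18 pairs fall on 1 side.

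In the order of mean levels, 12 of 20 neighbouring pairs among the 21 genes averaging FPKM 1 or more had 1 order in every library and a mean log2 difference above its SD. Of the 8 others, each changed order in 1 library. These were Col6a2 and Col1a2, then the run from Col1a1 through Col15a1, Col18a1, Col5a3 and Col6a3 to Col5a2, and last Col4a5, Col16a1 and Col6a6. Col4a1, Col4a2 and Col3a1 kept their places at the top. The order was taken from these same values, so these counts describe it and are not a test.

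Collagen levels differed between libraries mostly in 1 direction, lowest in replicate 1 and highest in replicate 3. Of the 21 collagens averaging FPKM 1 or more, 20 were highest in replicate 3, where 42.5% of all such symbols were highest. In replicate 1, 1 collagen was highest against 46.7% of symbols, and in replicate 2 none was against 10.8%. Replicate 1 held the lowest value of 16 of the 21 and replicate 2 that of 5, and the same shares over all symbols were not computed. To take out library scaling, the median log2 value of the 11993 symbols of that level was subtracted in each library. Replicate 1 then held the lowest value of 19 of the 21 collagens, and this share over all symbols was not computed either. On that scale 20 of 21 collagens were higher in replicate 3 than in replicate 1, against 53.4% of all symbols, and the median deviation of the collagens from their own means was -0.49, 0.06 and 0.44 in replicates 1, 2 and 3, against -0.03, 0.02 and 0.01 for all symbols. Collagens at least 1.5-fold below both other libraries in replicate 1 numbered 10 of 21, where all symbols gave 8.87%. They were Col1a1, Col1a2, Col4a1, Col4a2, Col4a5, Col6a3, Col6a5, Col8a1, Col14a1 and Col16a1. Those at least 1.5-fold above both others in replicate 3 were Col3a1, Col4a6 and Col6a3, 3 of 21 against 2.01%. None of the 21 stood above both others in replicate 1, against 11.9% of symbols, or in replicate 2, against 0.750%. None stood below both others in replicate 2, against 3.16%, or in replicate 3, against 1.93%.

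Without centring, 6 collagens met the rule in replicate 1, against 5.99% of all symbols, and 6 in replicate 3, against 3.18%. At 2-fold, 4 collagens, Col1a1, Col4a1, Col4a2 and Col8a1, met it in replicate 1, against 2.70%. Counted over all 44 genes, 4 stood at least 1.5-fold above both other libraries in replicate 1, where the share of all symbols was 14.5%. These were Col2a1, Col20a1, Col22a1 and Col23a1, all under FPKM 1. No test was made, as each library is a single sample.

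The collagens differed among themselves in how far they moved. The centred range between the libraries was 1.59 log2 units for Col4a2, 1.49 for Col4a1, 1.36 for Col8a1 and 1.31 for Col6a3. It was 0.25 for Col5a3 and 0.30 for Col15a1, whose deviations were 0.19, -0.12 and -0.07. Col5a1 and Col5a2 had almost the same deviations, -0.19, -0.16 and 0.34 for Col5a1 and -0.20, -0.16 and 0.36 for Col5a2. By class the median deviation in replicates 1, 2 and 3 was -0.73, 0.18 and 0.64 for basement membrane, -0.49, 0.01 and 0.44 for microfibrillar and -0.39, -0.07 and 0.36 for fibrillar collagens.

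Lists of cell type markers also differed between libraries. Fibroblast, mural and mesothelial lists had their lowest median deviation in replicate 1 and their highest in replicate 3, the endothelial list was lowest in replicate 1 and highest in replicate 2, the adipocyte list was highest in replicate 1 and the macrophage list hardly moved. The median deviation was -0.34, -0.01 and 0.32 for 12 preadipocyte and fibroblast genes, -0.36, 0.02 and 0.45 for 10 mural genes, -0.73, 0.46 and 0.27 for 12 endothelial genes and -1.02, 0.12 and 0.89 for 8 mesothelial genes. It was 1.08, -0.40 and -0.63 for 14 adipocyte genes and 0.08, 0.03 and -0.09 for 9 macrophage genes. Summed marker FPKM in replicates 1, 2 and 3 was 553, 744 and 1273 for the mural list, 1996, 4406 and 4072 for the endothelial list, 60.2, 130 and 226 for the mesothelial list and 19880, 6426 and 5956 for the adipocyte list. The fibroblast list summed to 4083, 2703 and 3399, of which Gsn, which was highest in replicate 1, held 3064, 1218 and 1612. Its members were mixed, with FPKM highest in replicate 3 for 9 of 12, in replicate 1 for 2 and in replicate 2 for 1. All 10 mural and all 8 mesothelial genes used were highest in replicate 3. None of the measured markers of these lists was listed at 0, and 1, Cnn1 of the mural list, was under FPKM 1 in every library. In bulk RNA, fewer cells of a type and less RNA per cell cannot be told apart, and the part of these cell types in the collagen differences was not tested.

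**Figure D4:**
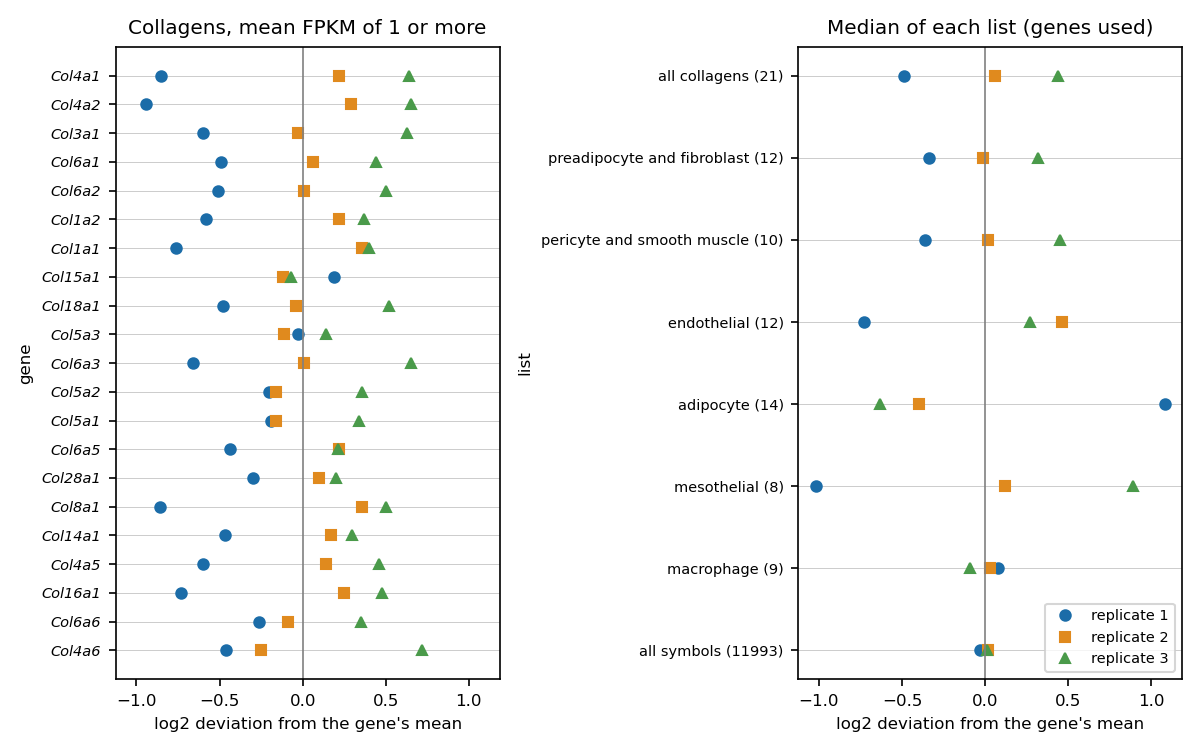
Left, log2 deviation of each of 21 collagens from its own mean after centring each library; right, the median of the same deviation over marker lists, with the number of genes used in brackets. Replicate 3 lies above replicate 1 for 20 of 21 collagens, against 53.4% of all symbols averaging FPKM 1 or more, and replicate 1 lies highest for the adipocyte list.

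Many collagen genes lie near another collagen gene, and such neighbours shared their level in some places and not in others. On the loci of the table, 18 of the 44 genes form 10 pairs within 500000 bases of each other. Not all are adjacent, as 2 coding genes lie between Col6a1 and Col18a1 and 8 between Col9a3 and Col20a1. Col4a1 and Col4a2 lie 2 bases apart and differed 1.22-fold in mean FPKM. Col4a4 and Col4a3 lie 71 bases apart, both under FPKM 1. In RefSeq the genes of both these pairs overlap. There Col4a1 ends at 11312889 and Col4a2 starts at 11312805, and Col4a4 ends at 82587034 and Col4a3 starts at 82586921. On the loci of the table Col4a6 and Col4a5 lie 1342 bases apart and differed 2.47-fold. Col6a2 and Col6a1 lie 85387 bases apart in the same orientation, with no annotated protein-coding gene between them, and differed 1.05-fold.

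Elsewhere close neighbours stood far apart in level. Col3a1 and Col5a2, 24624 bases apart, differed 7.12-fold. In the chromosome 9 cluster Col6a6, Col6a5 and Col6a4 follow one another with gaps of 27984 and 29674 bases, at mean FPKM of 2.98, 11.5 and 0.0640. Col9a1 and Col19a1, 4944 bases apart, were both near 0. Reads where Col4a1 and Col4a2 start cannot be assigned by strand, since the labels do not say that strand was kept.

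The table of RefSeq promoter windows used here matched 35 of the 44 genes, with 38 windows in all. The 9 others were Col12a1, Col14a1, Col1a1, Col22a1, Col26a1, Col2a1, Col4a3, Col5a2 and Col9a3. CpG content was measured because the series concerns DNA methylation, which falls on CpG and is usually absent from CpG-rich promoters. CpG observed over expected is the count of CpG set against that expected from the window's C and G. It was 0.902 for Col4a1 and 0.818 for Col4a2, whose windows share 78 bases, and 0.809 for Col5a1 and 0.665 for Col5a3. The windows of Col3a1 and Col28a1, both expressed in every library, held no CpG. Col6a1 stood at 0.134 and Col6a3 at 0.139, Col15a1 at 0.390, Col1a2 at 0.470 and Col4a4 at 0.489.

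Taking 0.6 as a threshold and the higher window of a gene with 2, 11 collagens were CpG-rich and 24 were not. Of the CpG-rich collagens 4 reached FPKM 1 in every library, 36.4%, and of the CpG-poor ones 13, 54.2%. Over all 17195 symbols with a window and a value these shares were 74.7% of the CpG-rich and 22.6% of the CpG-poor, the opposite order. The collagens' order depended on the threshold. At 0.5 it was 9 of 16 CpG-rich collagens, 56.2%, and 8 of 19 CpG-poor ones, 42.1%, against 72.2% and 18.0% of all symbols, and at 0.7 it was 42.9% and 50.0%, against 76.6% and 28.9%. At each of these thresholds the CpG-rich and CpG-poor shares lay closer together among the collagens than among all symbols. The expressed CpG-rich genes were Col4a1, Col4a2, Col5a1 and Col5a3. The CpG-rich genes that did not reach FPKM 1 in every library included Col8a2 at 0.832, Col13a1 at 0.837 and Col25a1 at 0.860. These shares are descriptions over genes chosen by family, with no test.

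**Figure D5:**
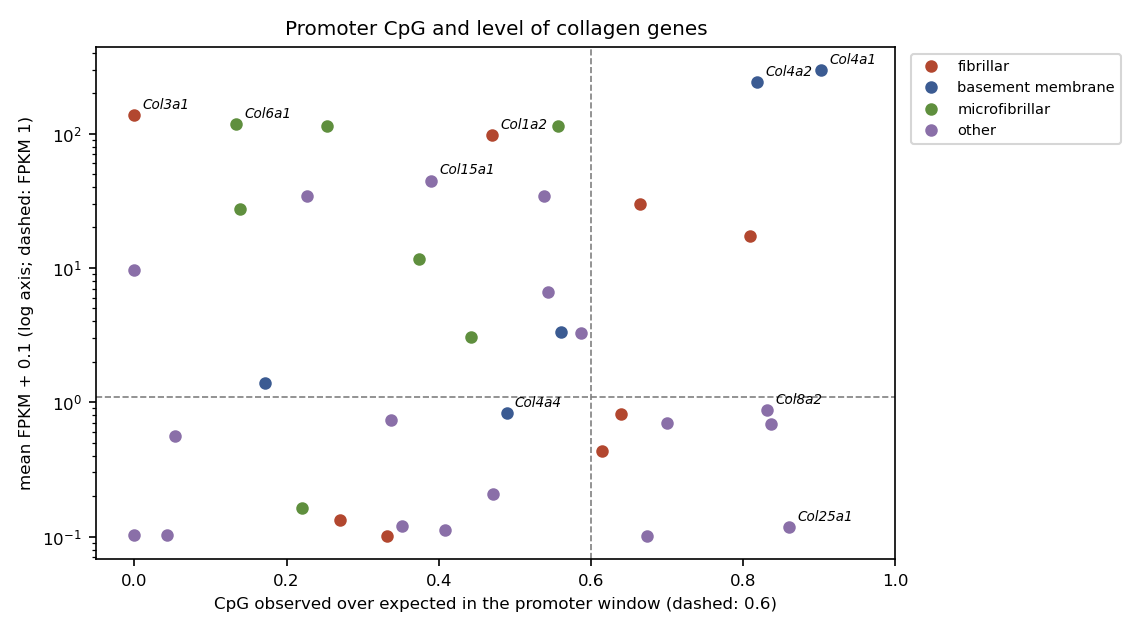
Mean FPKM plus 0.1 on a log axis against CpG observed over expected in each of 38 promoter windows, coloured by class, with dashed lines at 0.6 and at FPKM 1. Col4a1 and Col4a2 lie at upper right, and Col3a1 and Col6a1 at upper left.

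In the windows printed above, Col4a2 held GC boxes starting 192 and 48 bases before and 8 bases after its start, and a CCAAT box 32 bases before it. Col4a1 held a reverse CCAAT box 145 bases before its start and a GC box at base 10 after it, inside the shared stretch. Col1a2 held GC boxes 205 and 188 bases and a CCAAT box 109 bases before its start and a reverse CCAAT box at base 1. Col3a1 held 1 TATAAA, 117 bases before its start, and Col6a1 and Col4a4 held none of these letters. Over the 38 collagen windows, 60.5% held a GC box, 34.2% a CCAAT box and 13.2% a TATA box, against 35.7%, 37.4% and 13.6% of 32851 windows in the whole table. Matches are letters only and do not show a bound factor. Over all collagen windows 2 matches overlapped another.

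Genes that process or bind collagen mostly reached FPKM 1 in every library, but not to the same extent in each list. Of 65 genes in lists of modification, folding and secretion, cleavage, crosslinking, receptors, degradation and matrix partners, 54 reached FPKM 1 in every library, 83.1%, beside 45.5% of all symbols. Of the list of prolyl and lysyl modification, which holds enzymes that hydroxylate and glycosylate the chains and partner genes, 14 of 15 did so. P4hb, the shared subunit of prolyl 4-hydroxylase, stood at 184, 186 and 231 FPKM, the prolyl isomerase gene Ppib at 114, 126 and 142 and the lysyl hydroxylase gene Plod1 at 45.2, 65.7 and 72.6. Of the catalytic subunits P4ha3 averaged 0.0121 ± 0.0119 and was listed at 0 in replicate 2. All 10 folding and secretion genes were expressed. Serpinh1, the collagen chaperone HSP47, stood at 133, 199.8 and 265. It was lowest in replicate 1, as were P4hb, Ppib, Plod1 and the type I genes.

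Propeptide cleavage genes reached FPKM 1 in every library in 5 of 8 cases. The enhancer gene Pcolce stood at 49.2, 74.7 and 101 FPKM, the C-proteinase gene Bmp1 averaged 15.9 ± 3.19 and the N-proteinase gene Adamts2 9.18 ± 1.82, while Adamts3 and Tll2 stayed under 0.2. All 5 lysyl oxidase genes were expressed, led by Loxl2 at 13.0 ± 5.94, Loxl1 at 12.2 ± 3.51 and Lox at 6.31 ± 1.68.

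Collagen receptors reached FPKM 1 in every library in 6 of 10 cases. Itgb1, the shared integrin β subunit, averaged 216 ± 52.1 FPKM, its partner Itga1, which binds type IV collagen, 18.0 ± 3.60, and the kinase Ddr2, which binds fibrillar collagen, 13.4 ± 1.60. Itga2, Itga10 and the platelet receptor Gp6 were under FPKM 1 in every library. Of 8 degradation genes 5 were expressed, led by Mmp14 at 31.8 ± 11.3, Ctsk at 27.1 ± 8.78 and Mmp2 at 20.0 ± 4.23. The neutrophil collagenase Mmp8 averaged 0.0617 ± 0.0694, and Mmp1a was listed at 0 in all 3 libraries. All 9 matrix partners were expressed. Sparc, which binds collagen I and IV, stood at 902, 1493 and 1903, Dcn, a proteoglycan that binds fibrils, at 495, 536 and 604, and Bgn at 119, 213 and 279. Dcn and Lum also stand in the fibroblast marker list, so the lists are not independent.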

How the data were processed

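RNA-seq of wild-type adipocytes was analysed from 1 table of FPKM values that the authors deposited, with 1 column for each of 3 libraries, matched by the column names in the sample descriptions. Per the submitters' processing notes, Bismark 0.22.1, featureCounts and Trim Galore 0.5.0 were used, with mm10 and GRCm38 as builds, and no role is named for any. What program computed the FPKM is not given in the sources used. Abundant genes lower the FPKM of the others. The smallest positive value, 6.1e-62, is far below 1 fragment, so a listed 0 can be a failed estimate. Low values were searched for whole-read steps. In rows with 1 start under 0.15 FPKM in both libraries, the commonest ratio, in bins of 0.02 log2 units, held for 11 of 761, 128 of 1263 and 13 of 916 rows in the 3 library pairs, so depth stayed unknown and count tests were not used.

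The table had 24889 rows after 1 emptied line. Date-like symbols (27 rows) were left out, and for 273 symbols with more rows the one with the highest mean was kept. Table starts, counted from 0, are given from 1. Of 44 collagen loci, 22 had the same start and 19 the same end as RefSeq GRCm38.p6. Values were analysed as log2(FPKM + 0.1) with Python 3.11.15, numpy 2.4.6, pandas 2.3.3 and matplotlib 3.10.9. Ratios of 19 pairs were tested by exact two-sided sign-flip permutation over libraries with Benjamini-Hochberg adjustment. The calculation of the 1.5-fold rule was checked on simulated data with planted 3-fold changes and little spread. That check does not give the rule's error rate in these data. Collagen classes, pairs and lists were chosen with earlier results of these data known. Named genes are all collagens and, of each other list used, the 3 highest by mean and those under FPKM 1 in every library, some left out for length, and 1 marker list is not reported here. Lum, which stands in 2 lists, was named after its values were seen. Promoter CpG content was measured after the levels were seen. Protein features, planned at the outset, were not analysed here. Alternatives changed the pseudocount, thresholds, scaling and libraries.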

Additional observations from a re-analysis of the deposited data

How the results depend on the processing

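Of 101 recomputed values outside single chain pairs, 79 stayed close to the reported value, 21 moved and 1 reversed. All 114 recomputed ratios of single pairs kept their sign, but their size changed where a gene was low. With a pseudocount of 0.01 and of 1 the Col11a1 to Col5a1 ratio was -10.57 and -4.16, and with 1 the Col14a1 to Col12a1 ratio was 1.87, that of Col8a1 to Col8a2 2.04 and that of Col4a3 to Col4a4 -0.25. Class medians in log2 units moved with the genes included. Among collagens with a mean FPKM of 1 or more they were 5.20 for fibrillar, 4.73 for basement membrane, 4.67 for microfibrillar and 2.94 for other collagens, and with the mean over members 1.97, 2.79, 3.46 and -0.41 in the same classes. Rescaled to TPM, which raises every level, they were 5.08, 1.99, 5.09 and -0.12. With a pseudocount of 1 the basement membrane median was 1.60 and that of other collagens 0.50, and with 0.01 other collagens stood at -1.25. The count of collagens at least 1.5-fold below both other libraries in replicate 1, 10 as reported, was 6 without centring and 4 at 2-fold. The count above both others in replicate 3, 3 as reported, was 6 without centring and 0 at 2-fold, and that above both others in replicate 1 was 0, or 4 over all 44 genes. The share of collagens at FPKM 1 in every library was lower by a difference of -17.8 percentage points among CpG-rich than CpG-poor promoters at a threshold of 0.6, and the difference was 14.1 at 0.5 and -7.14 at 0.7, thresholds chosen after seeing the data. The reversal at 0.5 came from 5 genes that changed sides, Col16a1, Col18a1, Col4a5, Col6a2 and Col8a1, all of them expressed. Collagens detected in every library, 20 at FPKM 1, numbered 24 at FPKM 0.5, 19 at FPKM 2 and 24 under TPM. Leaving out 1 library again gave 20, and 18 to 19 pairs kept 1 sign. No paired analysis was possible because the RNA libraries form 1 group. With 3 libraries and unknown depth, differences among genes near 0 cannot be resolved.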
